A study of Rattus norvegicus with 7 samples.

Results

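The array of rats taken 48 hrs after embolic middle cerebral artery occlusion (eMCAo) was compared with the array of normal rats, across all genes the array measures. Of the 22523 probes with a value, the 13793 that carry a gene symbol were used, and they stand for 13337 genes, each read from its brightest probe. The 2 arrays belong to a series of 7, whose other 5 arrays were taken 12, 24, 72, 120 and 168 hrs after occlusion. Both arrays held total RNA from the brain of male Wistar rats of 280 to 320 g. The 48 hrs group had received an embolus injected into the middle cerebral artery, with success judged by the fall in blood flow, and the normal group had no surgery per the study's methods, so the effects of the operation and of the occlusion cannot be told apart here. The labels give no other treatment for either group and no transgene. GEO's label reads ischemic brain for both arrays, no brain region is named, and it is not given whether an array held RNA of 1 rat or a pool.

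An embolic occlusion starves part of the forebrain of blood. In the hours after it neurons in the core of the territory die, and over the next days resident microglia and blood leukocytes clear the debris, astrocytes around the core become reactive, and dividing glia, vascular and immune cells accumulate. The middle cerebral artery supplies the striatum and much of the lateral cortex, so genes of the medium spiny neurons of the striatum are a usual readout of neuron loss in this model. In bulk tissue fewer cells of a type and less RNA per cell cannot be told apart.

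Values are bead intensities on a linear scale after background subtraction, so a value near or below 0 is no brighter than blank. The median intensity was 13.4 on the normal array and 14.7 at 48 hrs. The detection limit, taken from the spread of the values below 0, was 9.49 on the normal array and 9.00 at 48 hrs. It was passed by 8656 genes on the normal array, 8982 at 48 hrs and 9367 on either. Of the 9367, 711 were detected at 48 hrs only and 385 on the normal array only. Such genes enter the counts through the array that detected them. A gene passed the 2-fold rule, and was counted as higher or lower, when its normalized values were 2-fold or more apart and 1 or both arrays detected it. With 1 array per group no difference could be tested, no value carries an error, and precision is limited by there being a single array on each side. Folds are ratios of normalized values to which 16 had been added, so changes of dim genes are understated. For genes below detection on the dimmer side only a lower bound ("at least") is given, set by the lowest detected level there.

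The tissue read as brain on both arrays. Snap25, which encodes a protein of the synaptic release machinery, had an intensity of 7913 on the normal array and 5107 at 48 hrs. Mbp, which encodes myelin basic protein, read 6691 and 3065. Gfap, which encodes the intermediate filament of astrocytes, read 3805 and 19255. All 3 genes were bright on both arrays. Mbp was lower and Gfap higher by the 2-fold rule, and Snap25 did not pass it.

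At 48 hrs 812 genes, 8.67% of the 9367 detected, passed the 2-fold rule. Of these 566 (6.04%) were higher and 246 (2.63%) were lower than normal, so that 69.7% of the genes past the rule were higher. Counts of the gene lists below are to be read beside these shares of all detected genes. The direction became more uneven with size, since 166 genes were at least 4-fold higher (1.77%) and 12 at least 4-fold lower (0.128%), and 61 (0.651%) against 3 (0.032%) passed 8-fold. Of the higher genes 159 were not detected on the normal array, and 11 of the lower genes were not detected at 48 hrs. The median log2 difference over all detected genes was -0.039, with 5% of genes below -0.79 and 5% above 1.15. Under other scalings and offsets 538 of the 812 genes stayed past 2-fold throughout, and 0 changed sign.

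**Figure D1:**
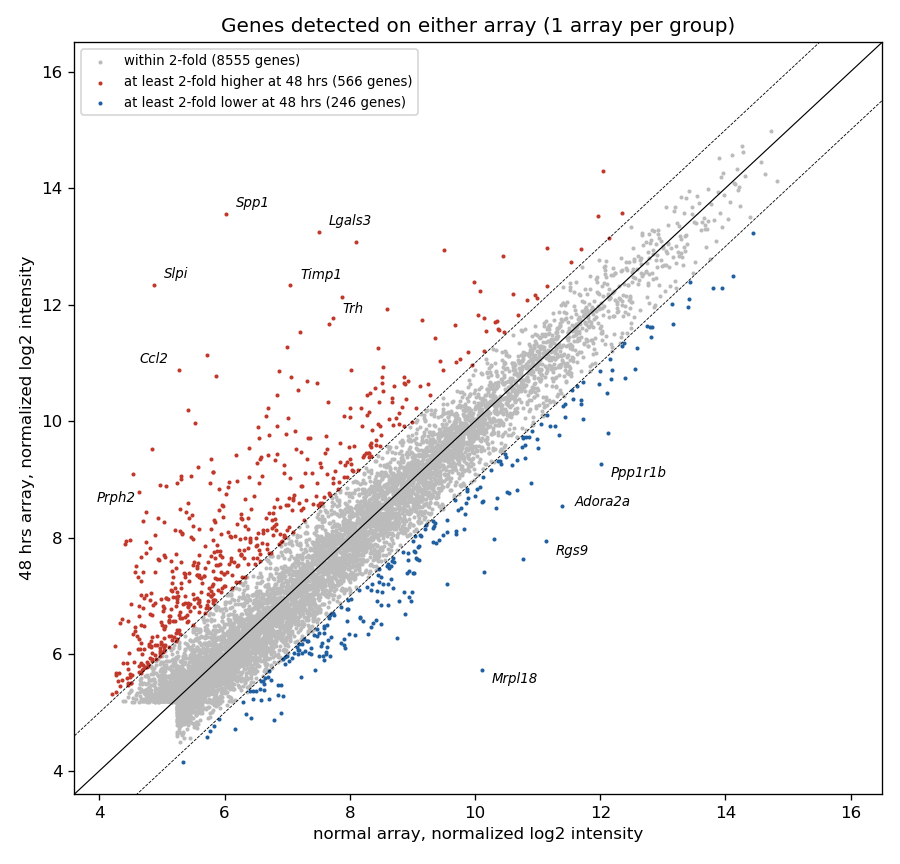
Normalized log2 intensity of the 9367 genes detected on either array, normal array on the x axis and 48 hrs array on the y axis, 1 point per gene. The solid line marks equal values and the dashed lines 2-fold, and 566 genes lie above the upper and 246 below the lower dashed line.

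The 15 genes furthest above normal were, in order, Spp1, Slpi, Lgals3, Ccl2, Lcn2, Timp1, Hspb1, Cd14, Il1b, Cxcl2, Reg3g, Ccl7, Plin2, Tspo and S100a4, of which 5 are given here and the others with their groups. Spp1, which encodes osteopontin, a secreted phosphoprotein of activated macrophages, had an intensity of 32.9 on the normal array and 11705 at 48 hrs, 185-fold higher. Lgals3, which encodes the phagocyte lectin galectin-3, read 137 and 9529 and was 53.9-fold higher. Timp1, an inhibitor of matrix metalloproteinases, read 94.6 and 5126, 39.1-fold higher. All 3 are secreted proteins. Tspo, which encodes a translocator of the outer mitochondrial membrane whose ligands are used to image brain inflammation, read 90.3 and 2421 and was 19.5-fold higher. S100a4, a calcium-binding protein of motile cells, read 183 and 4406 and was 19.2-fold higher.

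Of the 22 detected members of a list of macrophage and phagocyte markers, 17 were higher and 0 lower, with a median log2 difference of 2.02, beside 6.04% higher and a median of -0.039 over all detected genes. Cd14, the co-receptor for bacterial lipopolysaccharide on monocytes, read 27.3 on the normal array and 1668 at 48 hrs, 30.1-fold higher. Fcgr3a, an activating receptor for antibody-coated particles, read 57.1 and 907 and was 10.4-fold higher. Clec7a, a receptor for fungal beta-glucan, read 0.53 and 197 and was at least 6.03-fold higher. The phagocyte genes given here were named for large differences or after their values were seen, and 5 of the 22 did not pass the rule. The adaptor Tyrobp, through which many myeloid receptors signal, read 57.95 and 462 and was 5.26-fold higher. The phosphatase Ptprc, also named CD45 and carried by all leukocytes, read 3.97 and 95.3 and was at least 3.29-fold higher.

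Markers of resting microglia behaved less uniformly. Of 11 detected members 4 were higher, 0 were lower and the median was 0.34. The 4 were the complement genes C1qa, C1qb and C1qc and the receptor gene Fcrl2. C1qb, a chain of the C1q complex that opens the classical complement pathway, read 727 on the normal array and 3112 at 48 hrs, 3.92-fold higher. Fcrl2 read 87.1 and 569.9 and was 4.91-fold higher, after 68.5 at 24 hrs and before 2346 at 72 hrs. P2ry12, the purine receptor of surveying microglia, read 132 and 179 and did not pass the rule.

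Of 29 detected cytokine and chemokine genes 17 were higher, 1 was lower and 11 were neither, with a median of 1.51. Only 15 of the 29 were detected on the normal array, and a gene detected only at 48 hrs enters the count through the array where it is high. Ccl2, a chemoattractant of monocytes, read 10.4 on the normal array and 1781 at 48 hrs, 48.5-fold higher. Ccl7, a related monocyte chemoattractant, read 16.7 and 957 and was 21.9-fold higher. Cxcl2, a chemoattractant of neutrophils, read 1.20 and 689.5 and was at least 19.5-fold higher. Ccl2, Ccl7 and Cxcl2 were named for their large differences. Il1b, the inflammatory cytokine interleukin-1 beta, read 14.1 and 1125 and was 27.3-fold higher, its brightest value among the 7 arrays. Among genes that did not pass the rule Tnf (tumor necrosis factor) read 1.30 and 11.4, and Il6 (interleukin-6) read 6.83 and 4.45. The gene on the lower side was Cx3cl1, the membrane-bound chemokine of neurons, at 9381 and 4314, 2.50-fold lower.

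Of 18 detected receptors for cytokines and chemokines 6 were higher and 0 lower, with a median of 0.61. Il1r2, the decoy receptor that binds interleukin-1 without signaling, read -1.44 on the normal array and 283 at 48 hrs, at least 8.30-fold higher. Ccr1, a chemokine receptor of monocytes and neutrophils, read 13.04 and 319.7 and was 8.37-fold higher. Tnfrsf12a, the receptor of the cytokine TWEAK, read 30.7 and 345 and was 6.03-fold higher. The median of the receptor list was below that of the ligand list, 1.51. On the normal array 12 of the 18 receptors and 15 of the 29 ligands were detected. Genes detected only at 48 hrs shape both medians, so their difference is a description only.

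A list of genes for the NADPH oxidase, nitric oxide and arginase, 10 of them on the array, was drawn up after the values were seen. All 10 were detected at 48 hrs and 5 on the normal array, and 9 were higher, which describes the choice of genes as well as the arrays. Ncf1, a cytosolic subunit of the superoxide-producing oxidase, read 77.97 on the normal array and 912 at 48 hrs, 8.44-fold higher. Cybb, the catalytic subunit, read 3.31 and 168 and was at least 5.23-fold higher. Gch1, which makes the cofactor of nitric oxide synthases, read 9.53 and 458 and was 12.999-fold higher. Subunits of the oxidase and the cofactor enzyme were on the same side of normal. Nos2, the inducible nitric oxide synthase, read -4.49 and 88.2 and was at least 3.08-fold higher. Arg1, the arginase that competes with it for arginine, read 101 and 855 and was 6.48-fold higher. Both arginine-using enzymes were at their brightest of the 7 arrays at 48 hrs, with Nos2 at 10.9 at 24 hrs and 49.6 at 72 hrs, and Arg1 at 335 and 777.

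Neutrophil markers were carried by few genes. Of 11 detected members 5 were higher and 0 lower, with a median of 0.59. Only 4 of the 11 were detected on the normal array. The others enter the count through the 48 hrs array, which shapes both the count and the median. Slpi, the secretory leukocyte protease inhibitor, read 1.79 on the normal array and 5164 at 48 hrs, at least 138-fold higher. The other 5 eMCAo arrays read 811, 1543, 1601, 1303 and 181 in order of time, all below the 48 hrs array. Lcn2, a siderophore-binding protein, read 22.3 and 2162 and was 43.03-fold higher, and S100a8, a calprotectin chain, read -2.42 and 409.5 and was at least 11.8-fold higher. All 3 are made by other cells too. The granule genes Mpo (myeloperoxidase, 8.74 and 11.5) and Elane (neutrophil elastase, -7.49 and -6.68), which mature neutrophils no longer transcribe much, stayed near blank.

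Of 7 detected lymphocyte markers 2 were higher, and both encode chains of CD8. Only 1 of the 7 was detected on the normal array, so the others enter the count through the 48 hrs array. Cd8a read -5.94 on the normal array and 215 at 48 hrs, at least 6.51-fold higher, and Cd8b read -5.12 and 38.6, at least 1.73-fold higher. Cd8b passed the rule on its normalized values, while its bound lay under 2-fold. The T-cell receptor subunits Cd3d (-2.29 and 2.81) and Cd3g (5.40 and 5.42) were undetected on both arrays. Cd3e read 27.7 and 9.81 and did not pass the rule. Cd4 read -0.55 and 0.20. Of the CD3 chains, which T cells carry beside CD8, Cd3e alone was detected, and it was dimmer at 48 hrs. In rats CD8 is also found on natural killer cells and on activated macrophages.

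Genes of antigen presentation by the major histocompatibility complex were mostly higher. Of 15 detected genes 10 were higher and 0 lower, with a median of 1.40. RT1-Da, a class II chain, read 95.5 on the normal array and 1644 at 48 hrs, 13.04-fold higher. RT1-Ba, another class II chain, read 14.4 and 297 and was 7.53-fold higher. Cd74, the chaperone that occupies the class II groove, read 16.03 and 264 and was 6.52-fold higher. These class II genes were named for their large differences, and 5 of the 15 detected genes did not pass the rule. Psmb8, a subunit of the immunoproteasome that cuts peptides for class I, read 152 and 817 and was 4.33-fold higher. Of 10 detected class I genes of the RT1 complex 7 were higher with a median of 1.63. That list was drawn up after the values were seen, so the count is a description only. The class I genes are near-identical to each other, so a probe may read several of them.

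Of 22 detected interferon response genes 12 were higher and 0 lower, with a median of 1.01. Ifitm1, a membrane protein that blocks virus entry, read 28.6 on the normal array and 421 at 48 hrs, 7.60-fold higher. Mx1, an antiviral GTPase, read 32.7 and 398 and was 6.64-fold higher. Gbp2, a GTPase induced by interferon gamma, read 42.6 and 309 and was 4.44-fold higher. Ifit3 read 0.74 and 48.4, at least 1.98-fold higher, and Irf7, a transcription factor of the response, read 65.8 and 209, 2.34-fold higher. Isg15, a ubiquitin-like protein that is among the first genes induced by interferon, read -1.47 and 6.12 and was not detected on either array.

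The promoters of Ifit3 and Irf7 are shown because both genes passed the rule and both hold the core of the interferon-stimulated response element, which is GAAA, 2 bases of any kind and GAAA again, searched on either strand. Each runs from 250 bases before to 50 after the start site, from RefSeq, build GRCr8, with the match in capitals (as its reverse complement where it lies on the other strand). Ifit3 is at chr1:241527076-241527375 on the plus strand and Irf7 at chr1:205799974-205800273 on the minus strand.
Ifit3: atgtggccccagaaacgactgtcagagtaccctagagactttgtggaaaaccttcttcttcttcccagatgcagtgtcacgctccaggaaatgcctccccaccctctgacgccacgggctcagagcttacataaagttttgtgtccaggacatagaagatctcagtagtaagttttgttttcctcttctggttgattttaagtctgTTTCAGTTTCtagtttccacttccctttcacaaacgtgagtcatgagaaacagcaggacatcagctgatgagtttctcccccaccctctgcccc
Irf7: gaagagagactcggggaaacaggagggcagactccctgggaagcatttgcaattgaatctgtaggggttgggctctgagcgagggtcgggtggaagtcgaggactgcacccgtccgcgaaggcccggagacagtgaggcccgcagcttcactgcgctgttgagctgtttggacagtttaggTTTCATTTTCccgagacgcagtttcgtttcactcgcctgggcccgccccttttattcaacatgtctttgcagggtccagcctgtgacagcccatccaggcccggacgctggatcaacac
The element was found in 3.77% of 27457 promoters of this length, in 11 of the 18 interferon genes with a promoter in the table, and in 6 of the 11 of them that were higher. A match describes letters and not a bound site. The heat shock element, which is GAA, 2 bases of any kind, TTC, 2 bases of any kind and GAA, was searched in the same way. It was found in 0.736% of all promoters, in 6 of the 18 chaperone genes with a promoter and in 0 of the 3 that were higher.

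Of 18 detected complement genes 8 were higher and 0 lower, with a median of 0.91. C2, a protease of the classical pathway, read 294 on the normal array and 1239.8 at 48 hrs, 3.64-fold higher. Itgam, a chain of complement receptor 3, read 27.7 and 206 and was 3.999-fold higher. Among 28 detected genes of lysosomes and lipid handling 12 were higher and 0 lower, with a median of 0.66. Plin2, which coats lipid droplets, read 108 and 2894 and was 20.2-fold higher. Fabp4, a fatty acid carrier of macrophages, read 3.04 and 297 and was at least 8.62-fold higher. Ctsc, the lysosomal protease that activates granule serine proteases, read 77.6 and 650.5 and was 6.10-fold higher. Plin2 and Fabp4 were the 2 highest of the list, and the cathepsin genes Ctsb and Ctsd were 2.94-fold and 2.41-fold higher.

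**Figure D2:**
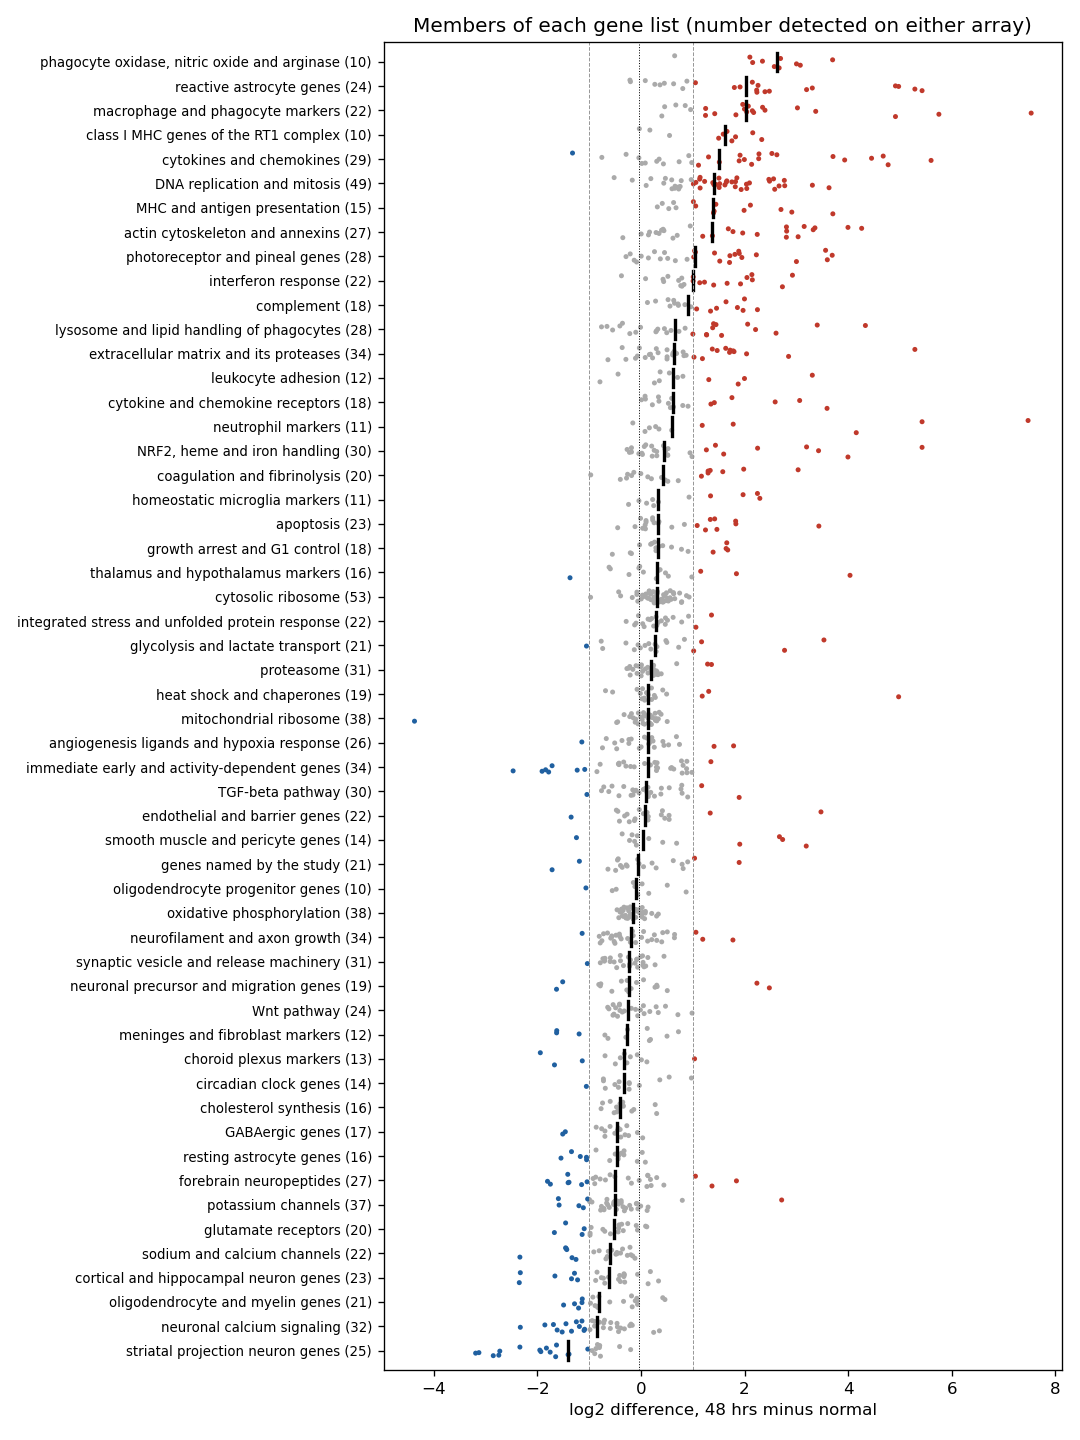
Log2 difference, 48 hrs minus normal, of every detected member of the lists with at least 10 detected genes, 1 point per gene and lists ordered by median (black bar). Red points are at least 2-fold higher, blue at least 2-fold lower and grey within 2-fold, the dotted line is the median of all detected genes (-0.039) and dashed lines mark 2-fold. Phagocyte, reactive astrocyte and mitosis lists lie to the right and striatal and calcium-signaling lists to the left.

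Reactive and resting programs of astrocytes lay on opposite sides of normal. Of 24 detected reactive astrocyte genes 15 were higher and 0 lower (median 2.03), and of 16 resting astrocyte genes 0 were higher and 5 lower (median -0.47). Gfap was 4.72-fold higher, and Vim, which encodes vimentin, an intermediate filament re-expressed by reactive astrocytes, read 1287 on the normal array and 7200.0 at 48 hrs, 5.26-fold higher. Serpina3n, a secreted protease inhibitor, read -6.64 and 70.8 and was at least 2.58-fold higher. Several of the highest members of the list, among them Lcn2, Timp1 and Cd14, are made by phagocytes as well. On the lower side Slc7a10, an amino acid exchanger for serine and glycine, read 232 and 71.9 and was 2.91-fold lower. Cldn10 read 1505 and 606 and was 2.53-fold lower, and S100b, a calcium-binding protein of astrocytes, read 6494 and 3068, 2.25-fold lower. Aqp4, the water channel of astrocyte endfeet, read 585 and 657 and did not pass the rule.

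Myelin genes were lower in part. Of 21 detected members 0 were higher and 5 lower, with a median of -0.81. Mal, a proteolipid of compact myelin, read 8042 on the normal array and 3179 at 48 hrs, 2.81-fold lower. Mbp was 2.30-fold lower, and Opalin, a membrane protein of mature oligodendrocytes, read 914 and 386, 2.43-fold lower. Ugt8, which makes the myelin lipid galactosylceramide, read 1718 and 812 and was 2.20-fold lower. Of 16 detected cholesterol synthesis genes 0 were higher and 0 lower, with a median of -0.41. Of 10 progenitor genes of the lineage 1 was lower, Enpp6, which marks newly formed oligodendrocytes, at 64.1 and 20.9.

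Of 49 detected genes of DNA replication and mitosis 33 were higher and 0 lower, with a median of 1.41, and 35 of the 49 were detected on the normal array. On the 12, 24 and 72 hrs arrays the median of the same members was -0.10, 0.24 and 2.09, all against the same normal array. Rrm2, a subunit of ribonucleotide reductase, read 18.2 on the normal array, 112 at 24 hrs and 555 at 48 hrs, 12.4-fold above normal. Cdk1, the kinase that starts mitosis, read 25.5, 101 and 527, 9.92-fold above normal. Ccnb2, a cyclin partner of that kinase, read 59.3, 98.6 and 609, 6.85-fold above normal. All 3 were brighter at 48 hrs than at 24 hrs. Kif22, a chromosome-moving kinesin, was 6.81-fold higher at 56.3 and 588. Of 18 detected genes of growth arrest and G1 control 4 were higher, Ccnd1 (cyclin D1, 641 and 1784), Gadd45a, Gadd45g and Myc.

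The promoters of Cdk1 and Ccnb2 are printed because genes of late cell division often carry the cell cycle homology region, with the core letters TTTGAA. The match on either strand is in capitals, and both are RefSeq windows of build GRCr8, Cdk1 at chr20:19265043-19265342 on the plus strand and Ccnb2 at chr8:79981609-79981908 on the minus strand.
Cdk1: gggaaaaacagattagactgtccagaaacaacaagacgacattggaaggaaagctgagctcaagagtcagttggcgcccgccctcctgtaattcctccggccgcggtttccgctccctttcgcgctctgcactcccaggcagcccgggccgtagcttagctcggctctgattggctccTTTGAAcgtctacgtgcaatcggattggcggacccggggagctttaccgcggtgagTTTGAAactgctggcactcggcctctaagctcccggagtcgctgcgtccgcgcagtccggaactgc
Ccnb2: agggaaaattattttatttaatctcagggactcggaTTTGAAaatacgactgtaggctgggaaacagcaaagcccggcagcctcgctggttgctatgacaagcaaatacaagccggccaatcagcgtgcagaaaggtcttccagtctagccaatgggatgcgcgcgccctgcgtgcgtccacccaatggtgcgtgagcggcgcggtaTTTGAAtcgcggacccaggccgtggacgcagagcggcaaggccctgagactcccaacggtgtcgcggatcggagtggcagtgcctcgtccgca
These letters were found in 18.1% of 27457 promoters, in 20 of 40 list members with a promoter and in 16 of the 26 that were higher. The letters CCAAT, on either strand, were found in 37.7% of all promoters, in 28 of the 40 and in 20 of the 26. Each motif was counted on its own, and matches of different motifs may share bases.

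Cytoskeleton and matrix genes were higher at larger shares than the 6.04% of all detected genes. Of 27 detected genes of the actin cytoskeleton and annexins 15 were higher and 0 lower, with a median of 1.38. S100a11 read 158 on the normal array and 3198 at 48 hrs, 15.97-fold higher, and its relative S100a6 read 105 and 1406, 10.3-fold higher. Lcp1, the actin bundler of leukocytes, read 327 and 3799 and was 10.03-fold higher. Of 34 detected matrix genes and matrix proteases 12 were higher and 0 lower (median 0.63). Fn1, fibronectin, read 211 and 1779 and was 7.21-fold higher, the brightest of its 7 values. Postn, periostin of fibroblasts, read 40.1 and 270.5 and was 4.11-fold higher. Col1a1, the main fibrillar collagen, read 29.4 and 11.6 and was within 2-fold.

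Endothelial and angiogenesis genes were called at shares near those of all detected genes, 6.04% higher and 2.63% lower. The share that was higher was larger for smooth muscle, adhesion and coagulation genes. Of 22 detected endothelial genes 2 were higher and 1 lower, with a median of 0.084, and of 14 smooth muscle genes 4 were higher and 1 lower (median 0.042). Ly6c read -4.92 on the normal array and 50.5, 219.7 and 37.9 at 24, 48 and 72 hrs, at least 6.60-fold higher at 48 hrs, and monocytes carry it as well as endothelium. Vwf, von Willebrand factor, read 199 and 590.3 and was 2.53-fold higher. Slco1c1, the thyroid hormone transporter of brain capillaries, read 2248 and 918 and was 2.54-fold lower. Tagln, an actin-binding protein of smooth muscle, read 134 and 1532 and was 9.13-fold higher. Of 12 detected adhesion genes 4 were higher, led by Cd44, the hyaluronan receptor, at 25.5 and 526 (9.91-fold higher). Icam1, the endothelial ligand of leukocyte integrins, read 38.7 and 233 and was 3.68-fold higher. Of 20 coagulation genes 7 were higher, led by Anxa2, the annexin that gathers plasminogen on cell surfaces, at 92.5 and 1016 (8.19-fold higher). Of 26 genes of angiogenesis and hypoxia 2 were higher and 1 lower, and Angpt2, which loosens vessel walls, read 14.1 and 86.2.

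Stress and metal-handling genes were higher in part. Hspb1, the small heat shock protein of astrocytes and vessels, read 223 on the normal array and 8413 at 48 hrs, 31.4-fold higher, while 16 of the 19 detected chaperone genes did not pass the rule. The others past it were Bag3, a co-chaperone of selective autophagy (364 and 1015), and Hspb8, its partner (282 and 734). Of 30 detected genes of the NRF2 response, heme and iron 8 were higher and 0 lower. Hmox1, which breaks down heme, read 79.8 and 1753 and was 15.96-fold higher. Mt1, a metal-binding metallothionein, read 648 and 7535 and was 10.8-fold higher. Cp, the ferroxidase ceruloplasmin, read 10.8 and 330.4 and was 9.18-fold higher. Hmox1, Mt1 and Cp were named for their large differences, and 22 of the 30 detected genes did not pass the rule. Of 23 detected apoptosis genes 8 were higher and 0 lower, led by Bcl2a1, a survival factor of myeloid cells, at 64.8 and 1042 (10.8-fold higher). Of 22 genes of the integrated stress response 2 were higher, Nupr1 and Atf3, a share near the 6.04% of all detected genes. Atf3 fell under 2-fold in at least 1 other scaling or offset.

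Energy metabolism was mostly within 2-fold. Of 38 detected subunits of oxidative phosphorylation 0 were higher and 0 lower, with a median of -0.15. Of 21 glycolysis and lactate transport genes 4 were higher and 1 lower. Slc16a3, the lactate exporter MCT4, read 67.6 on the normal array and 1153 at 48 hrs, 11.6-fold higher, and Hk3, the hexokinase of myeloid cells, read 11.4 and 243, 6.83-fold higher. Ldha, which makes lactate, read 2075 and 5053 and was 2.25-fold higher, and Aldoc, the aldolase of astrocytes and Purkinje cells, read 9693 and 5313, 2.07-fold lower. Of 53 detected cytosolic ribosomal proteins 0 passed the rule and 46 lay above 0, with a median of 0.32. Of 31 proteasome genes 2 were higher, a share near the 6.04% of all detected genes. They were Psme1 (2.57-fold) and Psme2 (2.44-fold), which form the interferon-induced activator.

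The gene furthest below normal stood apart from its family. Mrpl18, a protein of the large mitochondrial ribosomal subunit, read 991 on the normal array and 26.7 at 48 hrs, 20.7-fold lower. At 12, 24, 72, 120 and 168 hrs it read 398, 206, 522, 604 and 528, so the 48 hrs value was the lowest of 7. Of the 38 detected mitochondrial ribosomal genes the other 37 were within 2-fold, and the median was 0.14. The value rests on 1 probe.

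Genes of striatal projection neurons had the lowest median of the lists with at least 10 detected members. Of 25 detected members 0 were higher, 15 were lower and 0 lay above 0, with a median of -1.40, beside 2.63% lower over all detected genes. At 12, 24 and 72 hrs the median of the same members was -1.34, -0.79 and -1.60, against the same normal array. No brain region is named, so the share of striatum in the tissue taken cannot be told apart from neuron loss. Rgs9, which shortens dopamine receptor signaling, read 2038 on the normal array and 215 at 48 hrs, 9.12-fold lower. Pde10a, the phosphodiesterase of medium spiny neurons, read 1589 and 171 and was 8.73-fold lower. Adora2a, the adenosine receptor of the indirect pathway, read 2468 and 341 and was 7.21-fold lower. Ppp1r1b, which encodes the dopamine-regulated phosphatase inhibitor DARPP-32, read 3723 and 576 and was 6.69-fold lower. A second, dimmer Ppp1r1b probe read 76.3 and 37.9, a log2 difference of -0.81, and did not pass the rule. Of 204 genes with more than 1 detected probe, 10 had probes called differently and 0 in opposite directions. Rgs9, Pde10a, Adora2a and Ppp1r1b were named for their large differences, and 10 of the 25 detected members did not pass the rule. Gng7, the G protein subunit coupled to the striatal adenylyl cyclase, read 1011 and 143 and was 6.60-fold lower, and that cyclase, Adcy5, read 442 and 106, 3.81-fold lower. Drd1, the dopamine receptor of the direct pathway, read 189 and 50.5 and was 3.13-fold lower. Drd2, that of the indirect pathway, read 165 and 94.9 and did not pass the rule, at 1.72-fold lower. Penk, the enkephalin precursor, read 3065 and 1198 and was 2.65-fold lower, and Tac1, the precursor of substance P, read 1296 and 718 and did not pass the rule.

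**Figure D3:**
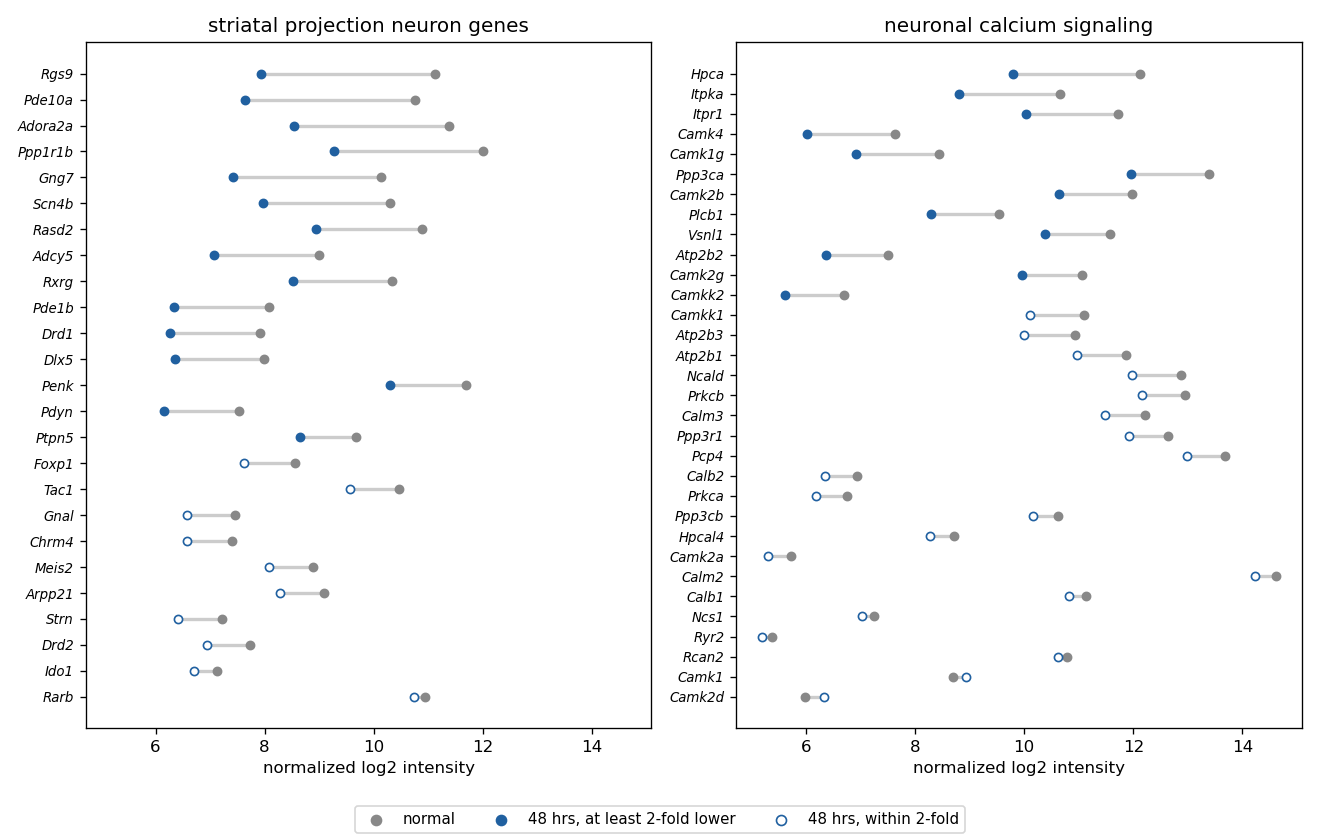
Normalized log2 intensity of the detected striatal (left) and calcium-signaling genes (right) on the normal array (grey) and at 48 hrs (blue, filled where at least 2-fold lower). All 25 striatal genes lie to the left of their normal value, 15 by at least 2-fold, and 12 of 32 calcium-signaling genes do so by at least 2-fold.

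Calcium signaling and excitability genes of neurons followed with smaller sizes. Of 32 detected calcium-signaling genes 0 were higher and 12 lower, with a median of -0.85. Hpca, the calcium sensor hippocalcin, read 4049.8 on the normal array and 843 at 48 hrs, 5.02-fold lower. Itpka, a kinase of inositol trisphosphate, read 1493 and 416 and was 3.61-fold lower, and Itpr1, the receptor that releases stored calcium, read 3132 and 1004, 3.22-fold lower. Camk4, a calmodulin kinase of the nucleus, read 152 and 38.1 and was 3.07-fold lower. These genes were named for their large differences, and 20 of the 32 did not pass the rule. Of 22 sodium and calcium channel genes 0 were higher and 6 lower (median -0.60), led by Scn4b, a sodium channel beta subunit enriched in striatum, at 1152 and 222 (5.05-fold lower). Of 37 potassium channel genes 1 was higher and 5 lower (median -0.51). The higher one was Kcnn4, the calcium-activated channel of immune cells, at -1.50 and 142 (at least 4.51-fold higher). Kcnip2, a subunit of transient potassium channels, read 733 and 246 and was 2.99-fold lower.

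Cortical and synaptic genes were lower in part. Of 23 detected cortical and hippocampal genes 0 were higher and 6 lower, with a median of -0.62. Neurod6, a transcription factor of cortical excitatory neurons, read 676 on the normal array and 119.9 at 48 hrs, 5.09-fold lower. Lamp5, a membrane protein of cortical interneurons and upper layer neurons, read 4796 and 1614 and was 3.16-fold lower. Of 20 glutamate receptor genes 4 were lower, led by Grin2a, an NMDA receptor subunit, at 182 and 46.9 (3.18-fold lower). Of 17 GABAergic genes 2 were lower, Gabra5 (422 and 145, 2.85-fold lower) and Gabrd (612 and 221, 2.75-fold lower), both subunits of receptors outside synapses. Presynaptic genes did not share the size of this change. Of 31 detected vesicle and release genes 0 were higher and 1 was lower, with a median of -0.22, and Syp, the vesicle protein synaptophysin, read 4031 and 3755. Of 34 genes of neurofilaments and axon growth 3 were higher and 1 lower, with a median of -0.18. These shares were near the 6.04% higher and 2.63% lower of all detected genes. Tubb2b, a tubulin of growing neurites, read 402 and 1511 and was 3.43-fold higher, and Sprr1a, a gene of regenerating axons, read 249.6 and 655, 2.29-fold higher.

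Some activity-dependent genes were above normal at 12 hrs and below it at 48 hrs. Of 34 detected members 1 was higher and 7 lower at 48 hrs, with a median of 0.13, while the median of the same members at 12 hrs was 1.41 against the same normal array. Arc, a synaptic protein made on neuronal activity, read 365 on the normal array and 1539, 171 and 51.5 at 12, 24 and 48 hrs, 5.53-fold below normal at the last. Egr1, a transcription factor of the same response, read 1364, 3596, 1043 and 399, 3.44-fold below normal. Bdnf, the brain-derived neurotrophic factor, read 159, 633, 149 and 35.9, 3.28-fold below normal. Each of the 3 was above normal at 12 hrs and below it at 48 hrs. Egr4 read 82.5 on the normal array and 4.59 at 48 hrs (at least 3.29-fold lower), and Nr4a3, an orphan nuclear receptor, read 271 and 65.8 (3.58-fold lower). Fos, the AP-1 subunit, read 116 and 241 and did not pass the rule.

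Neuropeptide genes moved both ways. Of 27 detected members 3 were higher and 7 lower, with a median of -0.50, and of 16 detected markers of thalamus and hypothalamus 3 were higher and 1 lower, with a median of 0.32. Trh, the precursor of thyrotropin-releasing hormone and the highest of the latter list, read 165 on the normal array and 2570.5, 3409 and 519 at 24, 48 and 72 hrs, 16.4-fold above normal at 48 hrs. Gal, galanin, read 22.9 and 163 and was 3.59-fold higher, and Npy, neuropeptide Y, read 1039.7 and 2954, 2.59-fold higher. On the lower side were Nts, neurotensin, at 398 and 106 (3.49-fold lower) and Cort, cortistatin of cortical interneurons, at 189 and 45.01 (3.36-fold lower). Oxt, the oxytocin precursor made in the hypothalamus, read 60.1 on the normal array and 9.72 at 48 hrs, 2.58-fold lower, and 1114, 735 and 706 at 12, 24 and 168 hrs. Avp, the vasopressin precursor of the same nuclei, read 36.4 and 58.4, and 1639 and 1301 at 12 and 24 hrs. Both hypothalamic hormones were dim on the 2 arrays compared here and bright at 12, 24 and 168 hrs (Avp 1089).

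A list of genes of retinal photoreceptors and the pineal gland, 42 of them on the array, from 2 organs that share much of their phototransduction machinery, was drawn up after the values were seen. Of the 42, 13 were detected on the normal array and 27 at 48 hrs, 28 on either. Of these 16 were higher and 0 lower, which the choice of the genes by their 48 hrs values fixes in part, so the count is a description only. Prph2, peripherin of the photoreceptor disc rim, read -0.47 on the normal array and 319 at 48 hrs, at least 9.24-fold higher. Gnat2, the transducin of cones, read 15.2 and 502 and was 12.1-fold higher. Mpp4, a scaffold of photoreceptor synapses, read 24.3 and 609 and was 11.8-fold higher. These 3 genes were named for their large differences at 48 hrs, from a list itself drawn up after those values were seen. Sag, the arrestin that ends the rhodopsin signal, read -2.02 and 175 and was at least 5.38-fold higher. Aipl1, a chaperone of the photoreceptor phosphodiesterase, read 0.90 and 105 and was at least 3.53-fold higher, and Guca1a, the calcium sensor of retinal guanylate cyclase, read 7.58 and 109.7, at least 3.64-fold higher. Asmt, the last enzyme of melatonin synthesis, read 9.65 and 95.3 and was 3.27-fold higher. Rom1, the partner of peripherin, read 346 and 1289.8 and was 3.29-fold higher.

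Defining members of the list did not all follow. Aanat, the melatonin enzyme with a strong day and night rhythm in the pineal, read 17.8 on the normal array and 17.2 at 48 hrs. Crx, the homeobox factor of photoreceptors and pinealocytes, read -4.65 and 7.08, and Nrl, the factor of rods, read -1.90 and -2.76. Gnat1, the transducin of rods, read -1.05 and 0.996, and Rcvrn, recoverin, read 8.77 and 3.74. Crx, Nrl, Gnat1 and Rcvrn were undetected on both arrays. The summed intensity of the 28 list members detected on either array was 633.6 on the normal array and 3991 at 48 hrs, with negative values left out of the sum. Leaving the list out, a choice made after seeing the data, 796 genes passed the 2-fold rule, 550 of them higher. The part of retinal or pineal RNA in other differences was not tested.

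**Figure D4:**
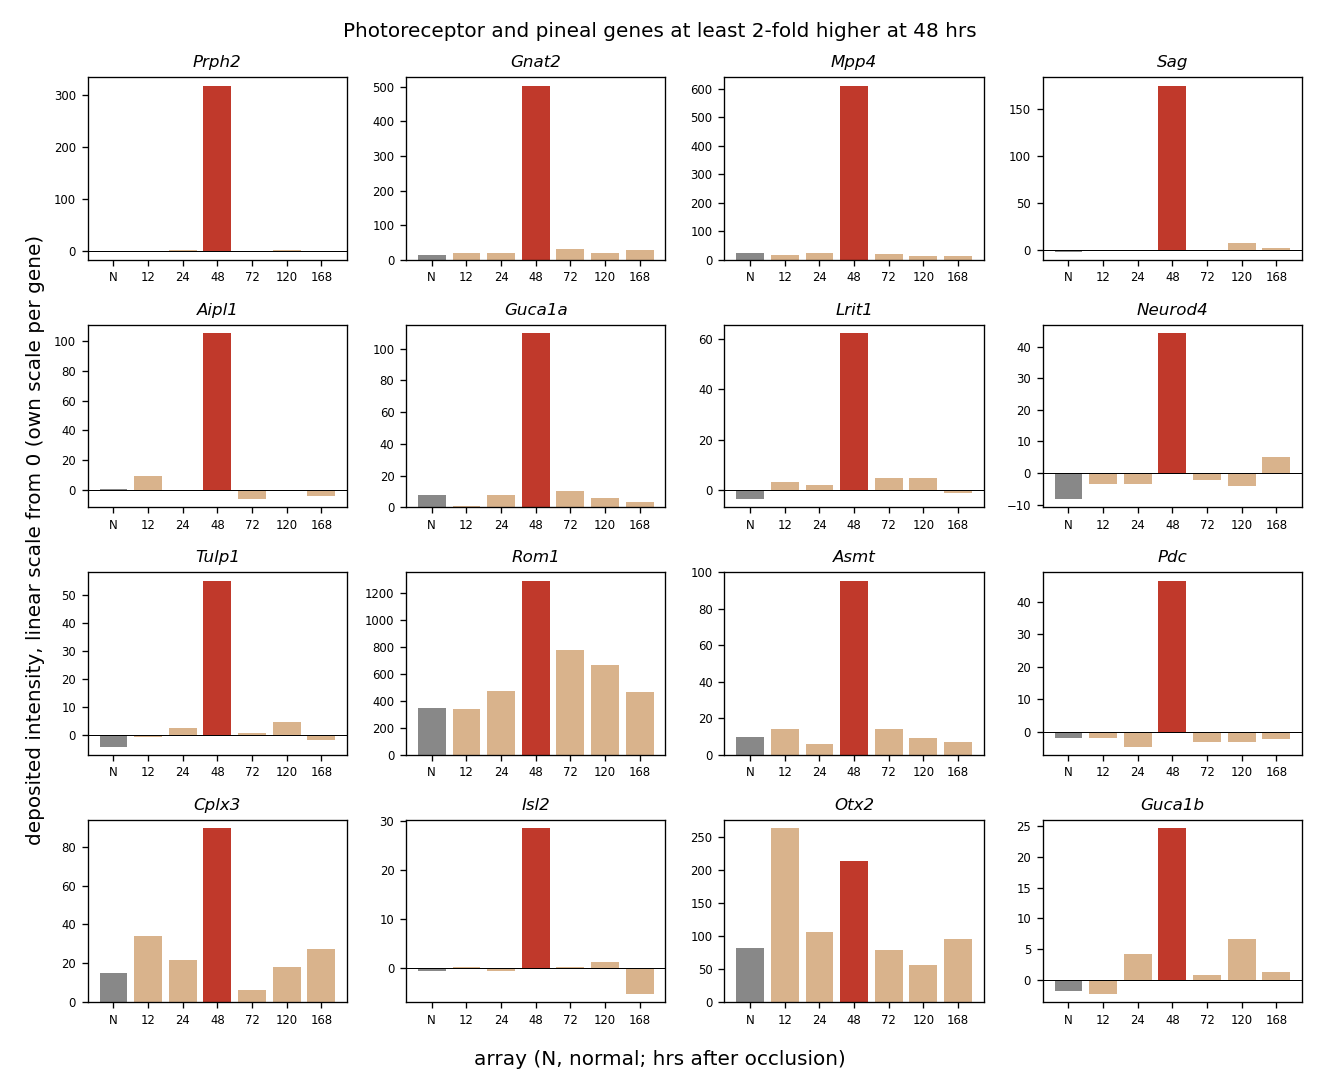
Deposited intensity (linear scale, own axis per gene) of the 16 photoreceptor and pineal genes at least 2-fold higher at 48 hrs, 1 bar per array, with the normal array in grey and the 48 hrs array in red. The 48 hrs bar is the tallest for 15 of the 16 genes, and for Otx2 the 12 hrs bar is taller.

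The promoters of Prph2, Aipl1, Guca1a and Lrit1 are shown because these 4 of the 14 higher members with a promoter in the table hold TAATCC, the core bound by the homeobox factors CRX and OTX2. Capitals mark the match (GGATTA where it lies on the other strand) in RefSeq windows of build GRCr8. They lie at chr9:21579025-21579324 on the minus strand, chr10:57163406-57163705 on the minus strand, chr9:21086392-21086691 on the plus strand and chr16:12842089-12842388 on the plus strand, in the order printed.
Prph2: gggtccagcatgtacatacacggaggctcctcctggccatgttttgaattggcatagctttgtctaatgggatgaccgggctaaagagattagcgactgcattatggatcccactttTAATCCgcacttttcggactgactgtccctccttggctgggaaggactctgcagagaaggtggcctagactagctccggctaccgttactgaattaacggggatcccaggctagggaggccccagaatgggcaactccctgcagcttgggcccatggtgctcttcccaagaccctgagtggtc
Aipl1: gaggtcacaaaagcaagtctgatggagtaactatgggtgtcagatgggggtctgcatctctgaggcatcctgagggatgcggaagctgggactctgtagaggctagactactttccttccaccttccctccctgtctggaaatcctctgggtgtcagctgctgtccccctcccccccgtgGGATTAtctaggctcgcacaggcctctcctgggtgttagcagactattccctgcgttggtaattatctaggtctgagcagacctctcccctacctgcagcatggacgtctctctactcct
Guca1a: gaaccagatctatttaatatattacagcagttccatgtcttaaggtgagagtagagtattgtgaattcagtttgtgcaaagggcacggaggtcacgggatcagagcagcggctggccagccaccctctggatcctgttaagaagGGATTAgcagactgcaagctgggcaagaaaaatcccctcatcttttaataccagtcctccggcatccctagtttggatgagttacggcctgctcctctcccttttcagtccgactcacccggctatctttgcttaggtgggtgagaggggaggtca
Lrit1: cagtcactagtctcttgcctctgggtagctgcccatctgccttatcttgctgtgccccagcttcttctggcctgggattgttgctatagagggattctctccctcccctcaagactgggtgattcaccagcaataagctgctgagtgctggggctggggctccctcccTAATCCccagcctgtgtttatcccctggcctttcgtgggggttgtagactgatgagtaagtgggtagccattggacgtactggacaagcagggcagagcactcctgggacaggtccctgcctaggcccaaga
The letters were found in 7.11% of 27457 promoters and in 12 of the 35 list members with a promoter. Lrit1, a leucine-rich repeat protein of the retina, read -3.51 on the normal array and 62.4 at 48 hrs, at least 2.36-fold higher. Otx2 itself, a factor of forebrain, choroid plexus and pineal development, read 82.1 and 214 and was 2.05-fold higher.

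Of all genes past the rule at 48 hrs, 27 lay within 1.5-fold of normal at both 24 and 72 hrs, 23 of them higher and 4 lower. The arrays at 24, 48 and 72 hrs share the normal array in these comparisons. The 6 highest held Prph2, Gnat2, Mpp4, Sag and Aipl1. Spink4, a secreted trypsin inhibitor of the gut, was the other, at -0.62 on the normal array and 103 at 48 hrs (at least 3.46-fold higher) and 1.65 and 6.09 at 24 and 72 hrs. The 4 lower genes were near the rule, from Gpc3, a heparan sulfate proteoglycan, at 254 and 115 (2.17-fold lower), to Wfdc1, a secreted protein with a protease inhibitor fold, at 458 and 232 (2.02-fold lower). Ctdspl read 119 and 48.6 (2.12-fold lower) and Phactr3 read 485 and 234 (2.11-fold lower).

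A lectin of mucosal defense was bright on the 24 and 48 hrs arrays and close to blank on the others. Reg3g, an antibacterial lectin of the gut that is also made by injured nerves, read -4.07 on the normal array and -4.42, 181, 512 and 12.9999 at 12, 24, 48 and 72 hrs, at least 14.4-fold above normal at 48 hrs. Of 4 detected Reg genes, a list drawn up after the values were seen and with 1 member detected on the normal array, 3 were higher. Reg3a read 6.86 and 74.5 and was at least 2.69-fold higher, and Reg3b read 31.5 and 43.8.

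Markers of choroid plexus, meninges and blood differed between the arrays in part. Of 13 detected choroid plexus markers 1 was higher and 3 lower, with summed intensities of 14101 and 6320. Ttr, transthyretin, read 5456 on the normal array, 18245 at 12 hrs and 1786 at 48 hrs, 3.18-fold below normal at 48 hrs. Sostdc1, a secreted antagonist of bone morphogenetic proteins, read 257, 798 and 55.002, 3.84-fold below normal. Of 12 meningeal markers 0 were higher and 3 lower, with sums of 23939 and 11921, led by Igf2, the insulin-like growth factor, at 4027 and 1365 (3.09-fold lower), and Ptgds, the prostaglandin D2 synthase, at 15769.7 and 5750.3 (3.08-fold lower). Of 6 detected erythrocyte markers 2 were higher, Hbb at 205 and 708 (2.96-fold higher) and Hba-a1 at 217 and 723 (2.84-fold higher). Of 4 cerebellar markers 0 passed the rule, and Gabra6, which defines cerebellar granule cells, read -0.85 and -4.14. The part of choroid plexus, meninges and blood in the other results was not tested.

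The study named genes of Hedgehog, Notch, Wnt and TGF-beta signaling and, outside these pathways, other targets of microRNAs such as Otx2 and Gja1. Of the 27 of all these on the array 21 were detected, 2 were higher and 2 lower, and the median was -0.061. Over all detected genes 6.04% were higher and 2.63% lower. The study chose them on these samples, so they are not independent evidence of a direction. Tgfb1, the growth factor itself, read 24.5 on the normal array and 177 at 48 hrs, 3.72-fold higher, and Otx2 was the other higher gene. Bdnf and Vsnl1, a neuronal calcium sensor (2774 and 1281, 2.28-fold lower), were the lower ones. Tgfb2 read 334 and 695 (1.87-fold higher), Smad2, which carries the signal of these receptors, read 97.5 and 206 (1.74-fold higher), and Ccn2, connective tissue growth factor, read 1053 and 1950.4 (1.76-fold higher). The 3 stayed under 2-fold.

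The other members on the list were closer to normal. Smad4, the shared partner of the SMAD factors, read 757 and 790.4. Ctnnb1, beta-catenin, read 608 and 796. Gja1, the gap junction protein connexin 43, read 8597 and 7132. None of these 3 reached 1.5-fold. Notch1 (132 and 117), Irak1, a kinase of Toll-like receptor signaling (394 and 330.5), Pdcd4, an inhibitor of translation (105 and 82.8), and Reck, an inhibitor of matrix proteases (304 and 269), were each lower by less than 1.5-fold. Apc (21.5 and 9.33), Jag1 (29.1 and 36.2) and Wnt3 (14.4 and 13.8) were dim, as was Col1a1. Smo, the Hedgehog transducer, read 5.47 and 11.1, Ccn5 -1.06 and 13.1, and Wnt1 9.77 and 0.68, each detected on 1 array. Bcl2l11, Cdkn1a, Dll1, Faslg, Hoxb8 and Notch3 were undetected on both. For some of these dim genes the study printed large signal log ratios from its mRNA array at the same time after occlusion. They were positive for Cdkn1a, Hoxb8 and Ccn5 and negative for Bcl2l11, Dll1 and Wnt1. Each of these genes lay below detection on at least 1 of the arrays compared here, so the printed sizes could not be checked. Of 24 detected Wnt pathway genes 0 passed the rule (median -0.25). Of 30 TGF-beta genes 2 were higher and 1 lower, shares near the 6.04% higher and 2.63% lower of all detected genes. Of 8 Hedgehog pathway genes on the array 2 were detected, Smo and Hhip, which binds and holds back the ligands and read 303 and 132, 2.26-fold lower.

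The genes past the rule at 48 hrs had not all reached their extreme there. Of the 566 higher genes 102 were brightest on the 48 hrs array, and 154 and 206 on those at 72 and 120 hrs. Of the 246 lower genes 74 were lowest on the 48 hrs array, and 51 and 72 on those at 24 and 120 hrs. At 24, 48 and 72 hrs the median log2 difference of the higher genes was 1.13, 1.55 and 1.85, and that of the lower genes -1.04, -1.25 and -1.22. These values share the normal array, and the 48 hrs value chose the genes. Compared directly, 221 of 9411 genes (2.35%) were at least 2-fold apart between 48 and 24 hrs, 154 of them higher (1.64%) and 67 lower (0.712%) at 48 hrs. Between 48 and 72 hrs 193 of 9434 genes (2.05%) were, 66 of them higher (0.7%) and 127 lower (1.35%) at 48 hrs.

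**Figure D5:**
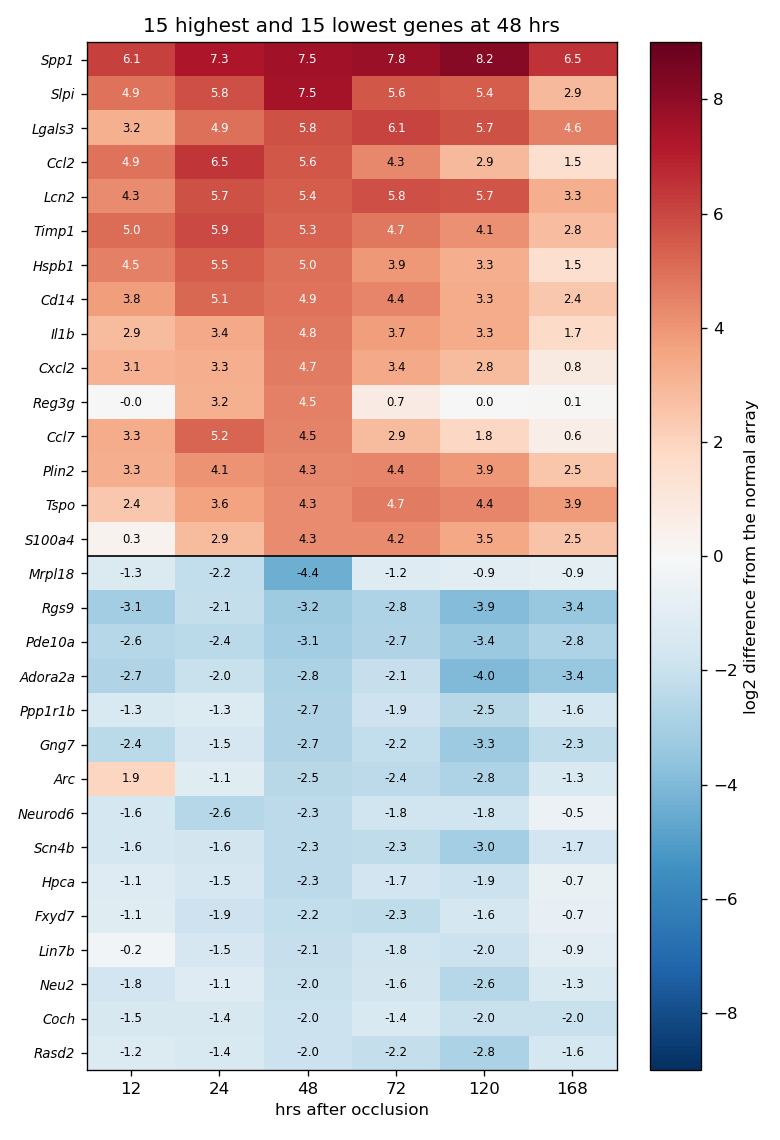
Log2 difference from the normal array at 12, 24, 48, 72, 120 and 168 hrs after occlusion for the 15 highest and 15 lowest genes at 48 hrs, 1 row per gene. Reg3g is above normal at 24 and 48 hrs and close to it at 12, 120 and 168 hrs, and Mrpl18 is furthest below normal at 48 hrs.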

How the data were processed

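Total RNA was hybridized to Illumina rat expression arrays, 1 array for normal rats and 1 for each of 6 times after occlusion. The deposited values are bead intensities on a linear scale, background subtracted and with no normalization stated, made by the authors with BeadStudio per the methods and GenomeStudio 1.8.0 per the submitters' processing notes. Another table of unnormalized values has 48 columns whose chip names match no sample, and it was not used. Of 22523 probes 13793 had 1 gene symbol, 0 several and 8730 none, and 13752 of those named matched RefSeq.

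Intensities of all 7 arrays were background corrected with limma 3.58.1 (R 4.3.3, normexp, saddle, offset 16), quantile normalized and taken to log2. Each gene was read from its brightest probe (Python 3.11.15, numpy 2.4.6, pandas 2.3.3). The detection limit was the 98th percentile of the values below 0 mirrored about 0. With 1 array per group no test was run, and the selection by p and score in the methods was not repeated, although intensity above 100 was tried as a filter. Alternatives were other scalings, offsets 4 and 50, filters, probe means and size limits. The script was tested on simulated data.

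Members and lists were chosen with earlier results of these data known. The 4 lists for photoreceptor and pineal genes, oxidase and arginase, Reg lectins and class I genes were drawn up after values were seen. Named genes are the 15 highest and 15 lowest past the rule, up to 4 members of each list with the largest difference past it, every gene named by the study, and up to 6 in each direction whose 24 and 72 hrs values were within 1.5-fold of normal. Other genes named were chosen after their values were seen, among them Clec7a, Tyrobp, Ptprc, Vim, Serpina3n, Ifit3, Irf7, Drd1, Adcy5, Penk, Npy, Rom1, Asmt, Guca1a, Lrit1 and every gene given as not past the rule outside the list of the study. Promoter sequences are from RefSeq, build GRCr8.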

Additional observations from a re-analysis of the deposited data

Results flagged for a closer look

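Of the named genes past the 2-fold rule at 48 hrs, 9 were past it in the opposite direction at another time. The differences between times were not tested, since each time had 1 array, and all times share the normal array. Arc lay at a log2 difference of -2.47 from normal at 48 hrs and 1.93 at 12 hrs, Egr4 at -1.91 and 2.20 (it was below detection at 48 hrs, so the first is a normalized difference and no measured size), Egr1 at -1.78 and 1.35, and Bdnf at -1.71 and 1.77. The hormone gene Oxt lay at -1.37 at 48 hrs and above normal on each of the other 5 eMCAo arrays, between 1.03 and 3.64. The choroid plexus genes Sostdc1 and Ttr lay at -1.94 and -1.67 at 48 hrs and at 1.46 and 1.78 at 12 hrs. The hemoglobin genes Hbb and Hba-a1 lay at 1.57 and 1.51 at 48 hrs, and at -1.32 and -1.28 at 120 hrs and -1.74 and -1.78 at 168 hrs.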

How the results depend on the processing

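The count of 812 genes past the 2-fold rule lay between 552 (offset 50) and 1057 (offset 4) under the other scalings, offsets, filters on dim genes and probe rules, except where values were raised to the detection limit without a background model or scaling, which gave 1438. By construction of the size limit it was 2067 at 1.5-fold and 178 at 4-fold. The share that was higher, 69.7%, was 75.25% with median scaling, 77.9% without scaling between arrays, 63.4% among genes detected on both arrays, 66.1% among genes with an intensity above 100, 53.3% at 1.5-fold and 93.3% at 4-fold, and the cause of the moves with scaling and filters was not tested. Leaving out the photoreceptor and pineal list, an alternative chosen after seeing the data, gave 796 genes. The median of the oligodendrocyte progenitor list turned to 0.026 without scaling and 0.037 on values raised to the detection limit. The single pituitary gene turned to 0.076 with median scaling, 0.11 without scaling and 0.17 on raised values. No other list median changed sign. Of 172 named genes past the rule 0 changed sign, and 20 fell under 2-fold in at least 1 scaling or offset, 18 of them with offset 50 (among them Oxt, Otx2, Cd8b, Gpc3, Ctdspl, Phactr3 and Wfdc1).

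No paired analysis was possible because each group had 1 array. For the same reason no array was left out in turn. A gene under the detection limit of an array (9.49 normal, 9.00 at 48 hrs) has only a bound there.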
